A study of Mus musculus with 2 samples.

Results

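The *Hox* genes are 39 mouse genes in 4 clusters, and all gene entries of the count tables named *Hox* plus a, b, c or d and a number were taken, without antisense genes. These are 40 of the 31053 entries, since *Hoxd4* is listed under 2 identifiers. They were measured by single-cell RNA sequencing in primary vascular smooth muscle cells (VSMCs) from the aorta of wildtype mice, with 1 library for each of 2 biological replicates. The mice were of C57BL6/N background, the thoracic aorta was dissociated with enzymes and several aortae were pooled per preparation. Cells were then grown for 5 days in full medium. Both libraries are of this 1 condition, without treatment or mutant, and the age of these mice is not given in the sources used here. The libraries were made with the 10x 3′ method, in which a unique molecular identifier (UMI) marks the 3′ end of each captured mRNA. A gene's UMI count is therefore a number of molecules and does not grow with its length.

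HOX proteins are transcription factors that bind DNA through a shared domain, the homeodomain, which the homeobox of each gene encodes. Genes of the same paralog number descend from 1 ancestral gene and lie at the same place in each cluster. Low numbers lie at the 3′ end and are used from the head on, whereas high numbers lie at the 5′ end and are used toward the tail. Adult fibroblasts and smooth muscle cells often keep the *Hox* genes of the body region in which they arose. Proximal aortic smooth muscle comes from the neural crest and the heart field, whereas that of the descending aorta comes from the paraxial mesoderm.

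The clusters lie on chromosome 6 (*Hoxa*, 52155590 to 52260880), chromosome 11 (*Hoxb*, 96194316 to 96368256), chromosome 15 (*Hoxc*, 102921103 to 103036852) and chromosome 2 (*Hoxd*, 74668310 to 74765142) of GRCm38, in the GENCODE M21 annotation. The homeoboxes of *Hoxb9* and *Hoxc9*, which are coding sequence, are shown because these close copies on different chromosomes were the most unevenly spread between cells of replicate 2. Capitals mark the 18 bases for the core of the helix that contacts DNA.
Hoxb9 (chr11:96274659-96274838, plus strand): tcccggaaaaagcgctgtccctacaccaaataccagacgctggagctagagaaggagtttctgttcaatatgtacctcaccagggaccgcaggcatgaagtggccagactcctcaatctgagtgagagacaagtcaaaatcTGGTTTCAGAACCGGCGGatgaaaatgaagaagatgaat
Hoxc9 (chr15:102983930-102984109, plus strand): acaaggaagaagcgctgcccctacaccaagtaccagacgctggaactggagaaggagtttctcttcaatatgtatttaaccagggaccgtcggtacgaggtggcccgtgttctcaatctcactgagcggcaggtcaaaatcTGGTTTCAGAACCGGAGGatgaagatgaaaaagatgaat
Over their 180 bases, both homeoboxes were identical at 151 bases (83.9%).

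A barcode was taken as a cell if it held 3000 or more UMIs and 300 or more genes, with less than 20% of the UMIs from mitochondrial genes. This left 4866 cells in replicate 1 and 6824 in replicate 2. The deposited counts summed to 127949633 and 132561822 UMIs, and the cells held a median of 22234.5 and 16310 UMIs. Both libraries had 9 cell barcodes in common. Endothelial cells (102 and 141) had at least 2 UMIs in each of at least 2 of *Pecam1*, *Cdh5*, *Cldn5* and *Gja4*. The others were divided by *Myh11*, the smooth muscle myosin heavy chain, into cells with at least 5 UMIs (Myh11-high, 473 and 879 cells) and at most 1 UMI (Myh11-low, 3954 and 5362 cells). Of the 8 tested contractile markers other than *Myh11*, which the rule used, 5 were higher in Myh11-high than in Myh11-low cells, with a median log2 fold change of 2.55. All 7 tested endothelial markers that were not in the rule were higher in endothelial than in Myh11-low cells. Free RNA was estimated at 12.4% and 15.8% of the UMIs of Myh11-high cells, and at 3.54% and 3.68% of those of Myh11-low cells. The estimate took all UMIs of the 4 genes of the endothelial rule in a class as free RNA. Of 11 tested endothelial markers, 2 were higher and 0 were lower in Myh11-high than in Myh11-low cells. Whether expression or doublets added to these UMIs was not tested. For endothelial cells and for all cells together, the share of Myh11-low cells was used. In the following, values of replicate 1 stand before those of replicate 2, and intervals are 95% intervals that cover counting error only. Fewer transcribing cells and fewer molecules per cell cannot be told apart in summed CPM.

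The *Hox* genes as a whole were found in most cells of the culture. All members summed to 408 and 237 CPM, and 96.2% and 85.8% of cells held at least 1 *Hox* UMI. *Hoxa* genes summed to 154 and 98.2 CPM over all cells, *Hoxb* genes to 166 and 105 CPM, *Hoxc* genes to 86.2 and 32.3 CPM, and *Hoxd* genes to 1.54 and 1.58 CPM. Thus the A and B clusters were high in both libraries, the C cluster was lower in replicate 2, and the D cluster was near 0 outside endothelial cells. Of the 40 entries, 26 had over 50 UMIs in each library, 5 had 0 UMIs in both (*Hoxa13*, *Hoxc12*, *Hoxd1*, *Hoxd12* and *Hoxd13*), and 8 had 1 to 20 UMIs in all (*Hoxa11*, *Hoxb1*, *Hoxb13*, *Hoxc11*, *Hoxd11*, *Hoxd3* and both *Hoxd4* entries). The last entry, *Hoxd10*, had its UMIs almost all in endothelial cells.

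By paralog number, the level over all cells was highest in the middle of the clusters in replicate 1. Paralog number 2 had 40.1 and 38.6 CPM (53.3% and 43.5% of cells), number 3 had 29.3 and 33.1 CPM (44.6% and 40.3%), and number 4 had 37.3 and 30.6 CPM (52.6% and 37.3%). Paralog numbers 2 to 4 were thus at like levels in both libraries.
Number 5 had 66.7 and 38.4 CPM (65.2% and 39.4% of cells), number 6 had 41 and 18.9 CPM (51.3% and 20.3%), and number 7 had 84.5 and 36.5 CPM (69.5% and 28.9%). Number 8 had 54.9 and 17.5 CPM (56.1% and 18.1%), and number 9 had 42.9 and 13.5 CPM (38.9% and 12.1%). From number 5 to number 9, replicate 2 was the lower library at every number. Number 10 had 6.54 and 5.21 CPM (7.81% and 4.6% of cells), number 11 had 0.0419 and 0.105 CPM, number 12 had 0 UMIs, and number 13, all but a few UMIs from *Hoxc13*, had 1.98 and 0.719 CPM (3.80% and 1.17%). A count of 0 allows a share of cells with a UMI of up to 0.0617% in replicate 1 and 0.0440% in replicate 2, and does not limit the share of cells that express the gene. From free RNA alone, 6.89% and 2.04% of cells would hold a UMI of number 7.

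Within Myh11-low cells, the highest levels were those of *Hoxa5* with 56.3 and 33.6 CPM, *Hoxa7* with 58.7 and 22.5 CPM, and *Hoxb2* with 31.9 and 32.5 CPM. Their means ± SD (n = 2) were 45.0 ± 16.0, 40.6 ± 25.6 and 32.2 ± 0.384 CPM, so that these neighbours in the order did not differ beyond the spread of the libraries. *Hoxc8* followed with 34.8 and 10.4 CPM, *Hoxb7* with 27.9 and 14.8 CPM, *Hoxb4* with 22.6 and 19.2 CPM, *Hoxc6* with 27.5 and 13.3 CPM, *Hoxb9* with 27.6 and 5.75 CPM, and *Hoxa3* with 14 and 19.3 CPM. Each neighbouring pair in this order also overlapped between libraries. Some entries share exon sequence on the same strand, so that their counts may be incomplete. These are *Hoxd3* and *Hoxd4* with each other and with *Gm28230*, *Hoxc5* with *Hoxc10*, and *Hoxa2* and *Hoxa3* with *Gm28308*. Whether strand was used in counting is not given in the sources used here. On the other strand, *Hoxaas3* overlaps *Hoxa3* and *Hoxa7*, *Hoxb3os* overlaps *Hoxb2* and *Hoxb3*, and *Hoxb5os* overlaps *Hoxb5*.

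**Figure D1:**
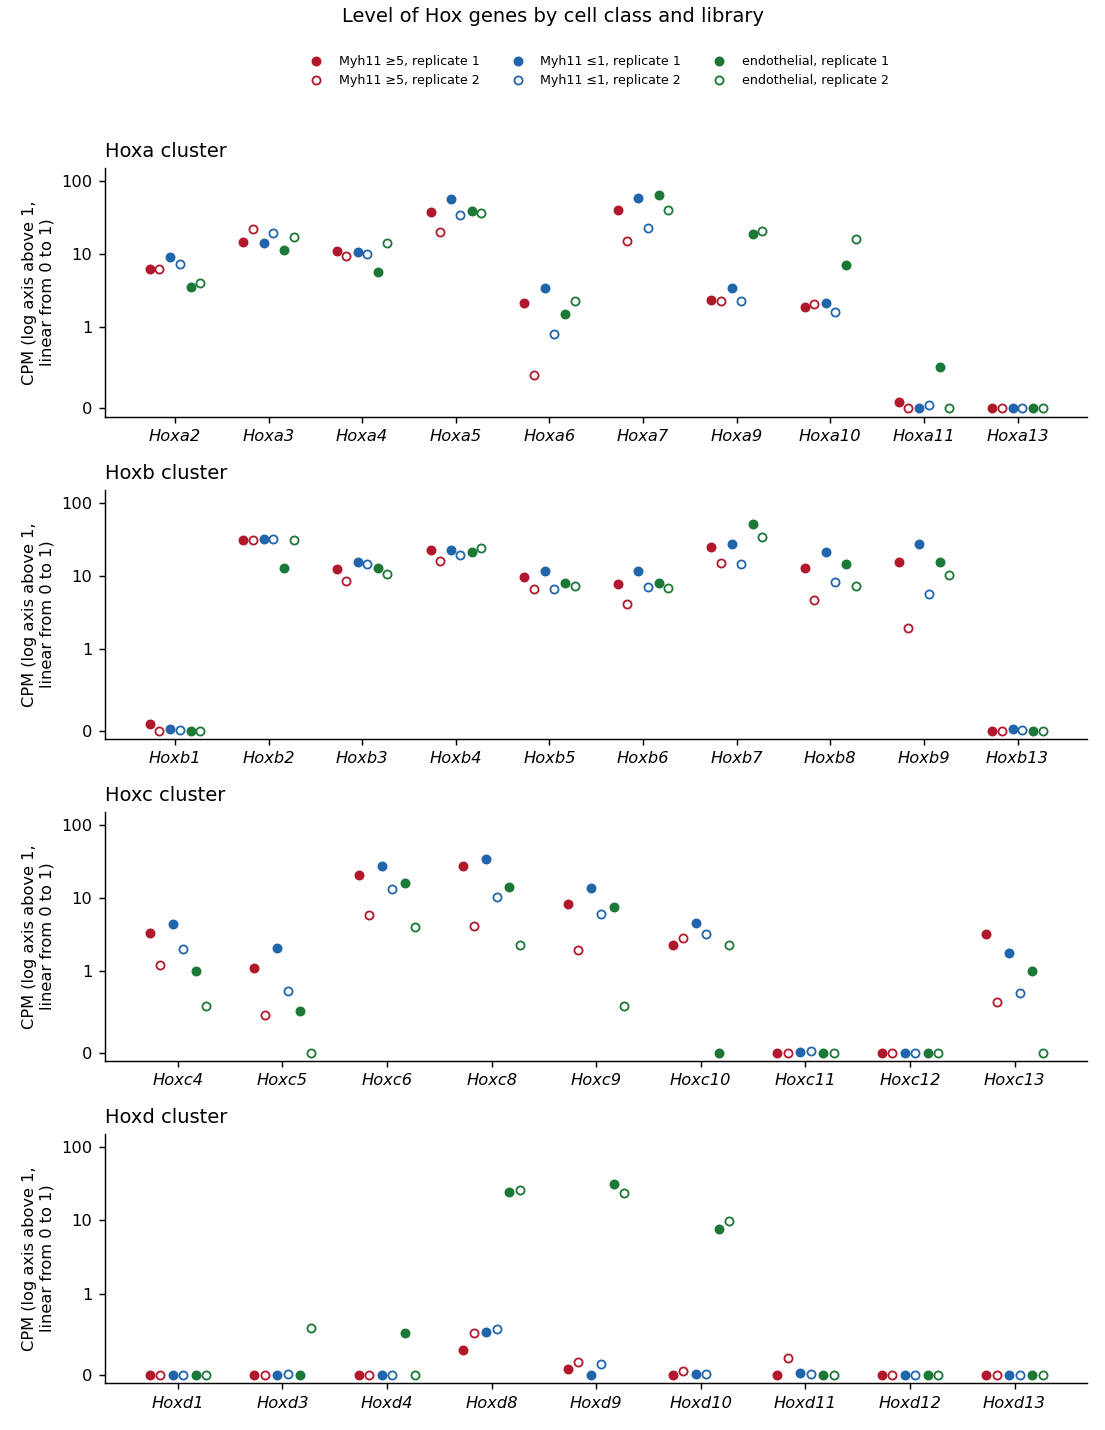
Level of the Hox genes in CPM (log axis above 1, linear from 0 to 1), with 1 panel per cluster and genes ordered by paralog number. Colours are the 3 cell classes, filled circles replicate 1 and open circles replicate 2, and the second Hoxd4 entry and 1 gene not reported here are left out. The Hoxd8, Hoxd9 and Hoxd10 circles of endothelial cells (7.64 to 31.1 CPM) lie far above those of the other classes, all under 1 CPM.

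Endothelial cells, which line the vessel and had been carried along in the culture, differed from Myh11-low cells in the 5′ genes of the *Hoxa* and *Hoxd* clusters. *Hoxd8* was found at 24.5 and 26.3 CPM in endothelial cells, and at 0.523 and 0.565 CPM in Myh11-low cells. The ratio was 46.8 (30.8 to 70.9) and 46.5 (30.7 to 70.4). *Hoxd9* was found at 31.1 and 23.4 CPM in endothelial cells, whereas Myh11-low cells had 0 UMIs in replicate 1 and 0.128 CPM in replicate 2. In replicate 1, the 95% interval of its ratio started at 782, and the ratio against a floor of 3 UMIs in the library's Myh11-low cells was 991. In replicate 2 it was 183-fold (94.5 to 383) higher. *Hoxd10* had 7.64 and 9.71 CPM in endothelial cells and 1 UMI in the Myh11-low cells of each library, which gives ratios of 731 (112 to 30771) and 911 (143 to 38090). All 3 genes, neighbours on chromosome 2, were thus apart in the 2 classes in both libraries.
*Hoxa9* had 18.9 and 20.6 CPM in endothelial cells against 3.45 and 2.28 CPM in Myh11-low cells. *Hoxa10* had 7.13 and 16.0 CPM against 2.12 and 1.59 CPM. *Hoxa2*, a hindbrain and arch gene, was lower with 3.57 and 4.0 CPM against 9.05 and 7.34 CPM. In these 3 genes, too, the values of both libraries did not overlap between the classes. The share of all genes without such overlap is not given here.

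Of the 27 members that passed the filter on low counts, 5 were higher and 1 was lower (edgeR's quasi-likelihood test on 2 sums per class, adjusted over 13221 genes by the Benjamini-Hochberg method), where 9.73% of all genes were higher and 6.52% were lower. The log2 fold changes were 5.44 ± 0.32 (SE) for *Hoxd8* (edgeR adjusted p = 0.000398), 8.59 ± 1.01 for *Hoxd9* (edgeR adjusted p = 0.00421) and 9.19 ± 0.71 for *Hoxd10* (edgeR adjusted p = 0.000997). They were 2.68 ± 0.31 for *Hoxa9* (edgeR adjusted p = 0.00382), 2.53 ± 0.45 for *Hoxa10* (edgeR adjusted p = 0.0165) and -1.21 ± 0.29 for *Hoxa2* (edgeR adjusted p = 0.0401). The fitted value of *Hoxd9*, with 0 UMIs in 1 Myh11-low sum, depends on the prior count. The Myh11-high sums were part of this fit, entered its estimate of the spread and were kept when other sums were left out. The median over the tested members was -0.36, and over all genes -0.03. *Hoxd8*, *Hoxd9* and *Hoxd10* passed the filter only through the endothelial sums, in which they were high. In Myh11-low cells, *Hoxd8* had 0.523 and 0.565 CPM, and *Hoxd9* and *Hoxd10* had at most 12 UMIs in a sum. Neither the count of higher members nor the median therefore stands for all 40 entries.
When each of the 4 sums was left out in turn, *Hoxd8*, *Hoxd10* and *Hoxa9* kept their calls. *Hoxd9* lost it without the endothelial sum of replicate 1 (edgeR adjusted p = 0.0557), *Hoxa10* in 3 of the 4 (0.0504 to 0.0964), and *Hoxa2* in all 4 (0.0749 to 0.173). With the library as a block, 6 members were higher and 4 were lower, where 15.6% of all genes were higher and 15.6% were lower. Then *Hoxb7* was also higher (0.93 on the log2 scale, edgeR adjusted p = 0.00486), and *Hoxc4* (-2.16, 0.0255), *Hoxc6* (-1.21, 0.0268) and *Hoxc8* (-1.69, 0.0146) were lower. The levels of *Hoxc4* in endothelial cells alone would not have passed the filter on low counts.

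As shares of cells, *Hoxd8* was found in 31.4% (22.5% to 41.3%) and 20.6% (14.2% to 28.2%) of endothelial cells against 1.11% and 0.802% of Myh11-low cells. *Hoxd9* was found in 24.5% and 14.9% of endothelial cells against 0% and 0.168%, where 0 of 3954 cells allows a share of up to 0.0759%. *Hoxd10* was found in 10.8% and 5.67% against 0.0253% and 0.0186%. The endothelial cells were the shallower class, with a median of 14629 and 10250 UMIs against 21979 and 15639.5. Free RNA alone would give a *Hoxd8* UMI in 0.0883% and 0.0625% of endothelial cells. *Hoxc* genes went the other way within each library, with 40.8 and 9.71 CPM in endothelial cells against 89.1 and 36.6 CPM in Myh11-low cells. The ranges of both classes overlapped across libraries, and no *Hoxc* member was called without the block. A *Hoxc* UMI was found in 15.7% and 2.84% of endothelial cells against 62.7% and 22.5%.

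The promoters of *Hoxd8*, *Hoxd9* and *Hoxd10* are shown because these neighbours were high together in endothelial cells. Each is 250 bases before to 50 bases after the gene start in RefSeq's GRCm38.p6 annotation, on the plus strand.
Hoxd8 (chr2:74704365-74704664): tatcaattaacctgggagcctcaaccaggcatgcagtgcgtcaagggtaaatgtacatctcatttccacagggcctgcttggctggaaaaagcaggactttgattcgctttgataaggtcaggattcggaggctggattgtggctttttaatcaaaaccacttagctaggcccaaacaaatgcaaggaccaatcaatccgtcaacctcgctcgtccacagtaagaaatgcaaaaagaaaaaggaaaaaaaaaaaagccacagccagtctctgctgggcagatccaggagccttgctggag
Hoxd9 (chr2:74697513-74697812): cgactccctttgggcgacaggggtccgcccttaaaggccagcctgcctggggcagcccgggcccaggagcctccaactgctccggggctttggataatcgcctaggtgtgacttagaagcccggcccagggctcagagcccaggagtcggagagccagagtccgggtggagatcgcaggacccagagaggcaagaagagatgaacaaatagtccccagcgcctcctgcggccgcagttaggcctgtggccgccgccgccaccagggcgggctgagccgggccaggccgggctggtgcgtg
Hoxd10 (chr2:74691641-74691940): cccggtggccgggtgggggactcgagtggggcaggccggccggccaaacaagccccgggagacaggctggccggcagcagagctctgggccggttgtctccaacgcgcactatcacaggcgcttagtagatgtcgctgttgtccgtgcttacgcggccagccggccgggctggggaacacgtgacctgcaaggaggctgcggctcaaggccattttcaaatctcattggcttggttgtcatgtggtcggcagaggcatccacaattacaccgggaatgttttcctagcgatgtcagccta
The letters TGATNNAT, the form bound by HOX proteins together with their PBX partners, were searched on both strands. They were found in 0 of these 3 promoters and in the promoters of 4 of the 22 members with an entry (*Hoxa2*, *Hoxb1*, *Hoxb8* and *Hoxd11*), while 2906 of all 32851 promoters (8.85%) held them. A match of letters is not a bound site, and no match says only that these letters are not in this window.

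The genes around the members were compared in the same fit. Inside the *Hoxd* cluster, the antisense transcript *Hoxd3os1* had 7.13 and 8.0 CPM in endothelial cells against 0.0732 and 0.149 CPM in Myh11-low cells (log2 fold change 5.96, edgeR adjusted p = 0.00237). It was the 1 of 8 tested non-coding or other genes within the clusters that was higher, and none was lower without the block. Its levels in Myh11-low cells alone would not have passed the filter on low counts. Of 10 tested genes just outside the clusters, *Skap2* beside *Hoxa* was higher (0.51, edgeR adjusted p = 0.0419), and *Lnpk* beside *Hoxd* was lower (-1.35, edgeR adjusted p = 0.0336). *Hotair*, in the *Hoxc* cluster, had 0 UMIs in the 3 classes.

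Genes that act with or on *Hox* genes were taken from lists. Of the 9 TALE cofactors, which bind DNA together with HOX proteins, *Meis1* (-1.88, edgeR adjusted p = 0.00433) and *Meis3* (-1.31, edgeR adjusted p = 0.0140) were lower in endothelial cells and 0 were higher. Of the 22 Polycomb and trithorax genes, whose complexes keep *Hox* genes silent or active, *Phc2* was higher (0.93, edgeR adjusted p = 0.00838) and 0 were lower. Of 8 tested genes of the Cdx, retinoid and Gdf11 inputs, 2 were lower, and these were *Aldh1a1*, which makes retinoic acid, and *Cyp26b1*, which breaks it down. Of 13 tested arch and neural crest transcription factors, 1 was higher and 2 were lower, of 5 heart field factors 0 were called, and of 6 somite factors 1 was higher and 2 were lower. The median log2 fold changes of these 6 lists were -0.31, 0.28, -1.07, -0.83, -0.49 and -0.87, beside -0.03 over all genes. With the library as a block, 5 Polycomb and trithorax genes were higher, 1 TALE cofactor was higher and 2 were lower, 2 arch factors were higher and 5 were lower, 2 heart field factors were higher and 1 was lower, and 1 somite factor was higher and 3 were lower.

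Myh11-high cells were then compared with the same Myh11-low sums, so that both comparisons share these control values. *Hoxb8* had 12.8 and 4.73 CPM in Myh11-high cells against 21.2 and 8.33 CPM in Myh11-low cells, and *Hoxb9* had 15.8 and 1.96 CPM against 27.6 and 5.75 CPM. In each library, the Myh11-high value of both genes was the lower, while the ranges of both classes overlapped across libraries. Of 27 tested members, edgeR's quasi-likelihood test called 0, where 1.84% of all genes were higher and 0.423% were lower. At an unadjusted p under 0.05, 1 member was higher and 0 were lower, beside 1187 higher and 1013 lower of all 13225 genes. DESeq2 called 1 member, beside 770 higher and 391 lower genes. With the block, 1 member was higher, and *Hoxb8* was lower (-0.71, edgeR adjusted p = 0.0264), where 8.84% of all genes were higher and 7.44% were lower. Within the libraries, *Hoxb8* was at -0.72 and -0.82. The median was -0.33 over the members and -0.02 over all genes, and 8 of 27 members had a positive value. *Hoxd9* and *Hoxd10*, with 0 to 12 UMIs in each Myh11-high or Myh11-low sum, are among these 8 and were tested only because of their endothelial counts. *Hoxd8*, with a negative value, was also tested only because of its endothelial counts. The median over the members turned to 0.08, with 18 positive, without the Myh11-low sum of replicate 1, and to 0.03, with 14 positive, without the Myh11-high sum of replicate 2. Among the 6 lists above, *Aldh1a1* alone was called (lower by 1.03 on the log2 scale, edgeR adjusted p = 0.0359). With the library as a block, 3 TALE cofactors were lower, 1 gene of the Cdx, retinoid and Gdf11 inputs was higher and 3 were lower, 1 arch factor was higher and 3 were lower, 3 heart field factors were higher, and 2 somite factors were higher and 1 was lower.

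Between the 2 libraries, which have no replicates of their own, the members differed by paralog number, and these values are given without a test. In non-endothelial cells, *Hoxb9* had 25.9 CPM in replicate 1 and 5.21 CPM in replicate 2 (-2.31 on the log2 scale). *Hoxc8* had 34.3 and 9.14 CPM (-1.91), *Hoxa6* had 3.33 and 0.803 CPM (-2.05), and *Hoxa7* had 56.3 and 21.1 CPM (-1.41). *Hoxb2* had 32.0 and 31.6 CPM (-0.02), *Hoxa4* had 10.5 and 10.1 CPM (-0.07), and *Hoxa3* had 14.1 and 19.8 CPM (0.49). *Hoxa9* with 3.30 and 2.27 CPM (-0.54) and *Hoxc10* with 4.29 and 3.19 CPM (-0.43) differed less than the other high numbers named. Thus high numbers were lower in replicate 2 to an unlike extent, while low numbers were mostly at the same level.
Of 21 members with a mean of at least 2 CPM, 8 lay below -1, beside 2.44% of 11018 genes with such a mean. The median was -0.77 over the members and 0.04 over all genes, of which the 5th to 95th percentiles were -0.68 and 0.71. After these values had been seen, the members were divided into paralog numbers 1 to 4 and 6 to 13. The median was -0.13 for the 8 measured members of numbers 1 to 4, of which *Hoxc4* (-1.24) lay below -1, and -1.31 for the 11 of numbers 6 to 13, of which 7 did. Summed over all cells, numbers 1 to 4 had 109 and 106 CPM, and numbers 6 to 13 had 232 and 92.5 CPM. In endothelial cells these sums were 71.3 and 105 CPM, and 285 and 206 CPM.

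**Figure D2:**
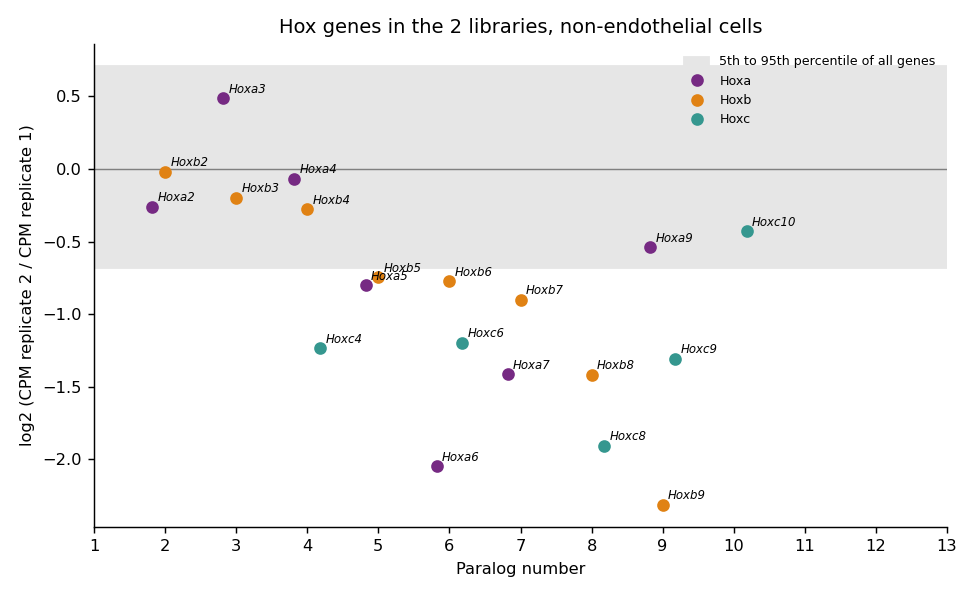
Log2 ratio of the CPM of replicate 2 to that of replicate 1 in non-endothelial cells against paralog number, for members with a mean of at least 2 CPM, without 1 that is not reported here. Each point is 1 gene, coloured by cluster, and the grey band spans the 5th to 95th percentiles of all genes (-0.68 to 0.71). Points of numbers 2 to 4 lie in or near the band except Hoxc4 (-1.24), and most points of numbers 6 to 9 lie below it.

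Whether cells with and without *Hox* UMIs are separate populations was examined in non-endothelial cells. Cells without any *Hox* UMI made up 3.78% (3.25% to 4.36%, 180 of 4764) in replicate 1 and 14.1% (13.3% to 15%, 942 of 6683) in replicate 2. If every cell had the mean level of its library, 1.09% and 5.38% would be without a UMI at their depth. The share fell with depth. When cells were ordered by UMIs and cut into 4 equal parts, 11.9% and 25.9% were negative in the shallowest part and 0.168% and 5.09% in the deepest, where equal levels would give 4.33% and 16.5%, and 7.21e-05% and 0.143%. After thinning each cell to 3000 UMIs, 35.0% and 55.2% would be without a *Hox* UMI, where equal levels would give 29.4% and 49.4%.
The excess of negative cells was larger for the high than for the low paralog numbers. Cells without a UMI of numbers 6 to 13 made up 13.9% and 61.3%, where equal levels would give 3.46% and 24.9%. Cells without a UMI of numbers 1 to 4 made up 17.6% and 24.8%, where equal levels would give 13% and 20.5%. The median cell of replicate 2 held 0 UMIs of numbers 6 to 13, while the 90th percentile was 6 UMIs. In that library the share of cells fell from 61.3% with 0 UMIs over 9.34% with 1 and 6.37% with 2 to 1.66% with 7 and showed no second peak. At so few UMIs per cell, this does not tell whether there are 1 or 2 sets of cells.

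**Figure D3:**
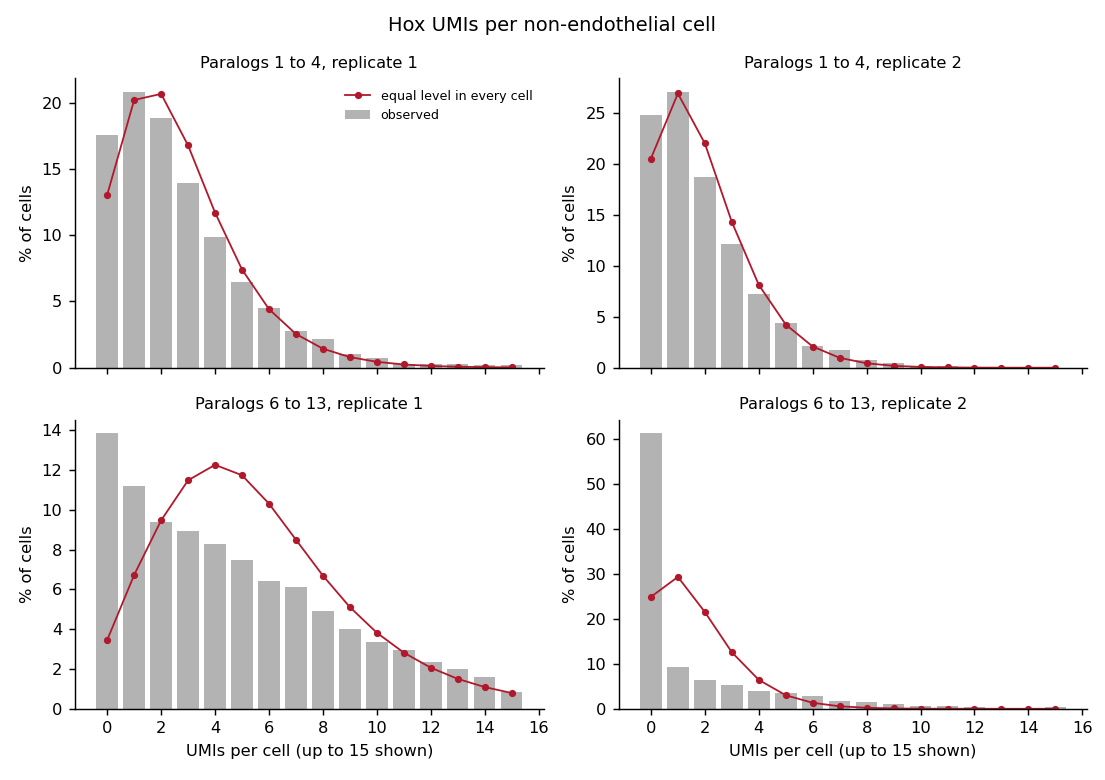
Share of non-endothelial cells (in %) by the number of UMIs per cell, for the sets of paralogs and the library named above each panel, with up to 15 UMIs shown. Grey bars are the observed shares, and red points are the shares that the mean level of the library in every cell would give. For numbers 6 to 13 in replicate 2, the bar at 0 (61.3%) is far above the red point (24.9%).

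The overdispersion of each gene between cells is 0 when counts vary by sampling and depth alone. All 16 members with at least 5 CPM had a higher overdispersion than the median of all such genes in both libraries. The median was 0.701 and 2.01 over the members, and 0.152 and 0.163 over 9374 and 9527 genes. The highest values in replicate 2 were those of *Hoxb9* (9.87), *Hoxc9* (8.52) and *Hoxc8* (7.25), whereas *Hoxa3* (0.350), *Hoxb4* (0.637) and *Hoxb2* (0.714) were among the lowest. In replicate 1, *Hoxc9* (2.85) and *Hoxb9* (2.51) led as well, but the lowest was *Hoxb7* (0.235), and *Hoxa2* (0.827) lay above *Hoxa7* (0.705) and *Hoxb8* (0.697).
Pairs of members were found in the same cells more often than independent detection among cells of like UMI count would give in 113 of 120 pairs in replicate 1 and 98 of 120 in replicate 2. The median ratio of observed to expected cells was 1.08 and 1.30. Ratios for pairs of other genes are not given here, so these counts do not tell whether members differ from other genes. The pairs found less often than expected in replicate 2 all held *Hoxa2*, *Hoxa3* or *Hoxa4*. *Hoxb9* and *Hoxc9*, which lie on different chromosomes, had ratios of 1.74 and 5.14, and the neighbours *Hoxc8* and *Hoxc9* had 1.53 and 4.95. *Hoxa3* and *Hoxc9* had 0.987 and 0.717, the lowest of replicate 2.

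Since the clusters lie on different chromosomes, the genes of 1 pair of clusters were compared by the UMIs of the other pair, with cells paired for depth within each library. Cells with at least 1 *Hoxc* or *Hoxd* UMI were set against cells without, in 1822 and 1463 pairs. The *Hoxc* and *Hoxd* genes chose these sets and were left out. *Hoxa9* had 4.45 and 8.24 CPM in cells with such a UMI against 0.782 and 0.286 CPM in cells without. *Hoxa10* had 2.88 and 6.25 CPM against 0.469 and 0.25 CPM, and *Hoxb9* had 34.8 and 17.7 CPM against 10.6 and 1.11 CPM. In these 3 genes, the values of both libraries did not overlap between the sets. The share of all genes without such overlap is not given here.
*Hoxa4* had 10.5 and 9.49 CPM against 11 and 10.6 CPM, and *Hoxb4* had 23.3 and 25.8 CPM against 21.9 and 18.9 CPM. The values of *Hoxa4* and *Hoxb4* did not overlap between the sets either, but their log2 fold changes were small (-0.13 and 0.25). The log2 fold changes were 3.49 for *Hoxa9*, 3.59 for *Hoxa10* and 2.12 for *Hoxb9*, but edgeR's quasi-likelihood test called 0 of the 17 tested members and 0% of 13621 genes. At an unadjusted p under 0.05, 2 members were higher and 0 were lower, beside 161 higher and 265 lower genes. With the library as a block, *Hoxa10* (edgeR adjusted p = 0.0293) and *Hoxa9* (edgeR adjusted p = 0.0340) were higher, where 1.08% of all genes were, and DESeq2 called the same 2 members, beside 12 higher and 14 lower genes. The 8 members of numbers 6 to 13 all had positive values with a median of 1.55, and 3 of the 7 members of numbers 1 to 4 were positive with a median of -0.13, beside 0.01 over all genes. In the cells of replicate 2 without a *Hoxc* or *Hoxd* UMI, *Hoxa6*, *Hoxa9* and *Hoxa10* had 8, 8 and 7 UMIs. Their levels in the cells without alone would not have passed the filter on low counts. Neither their calls nor the median of 1.55 therefore stands for all members of numbers 6 to 13.

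**Figure D4:**
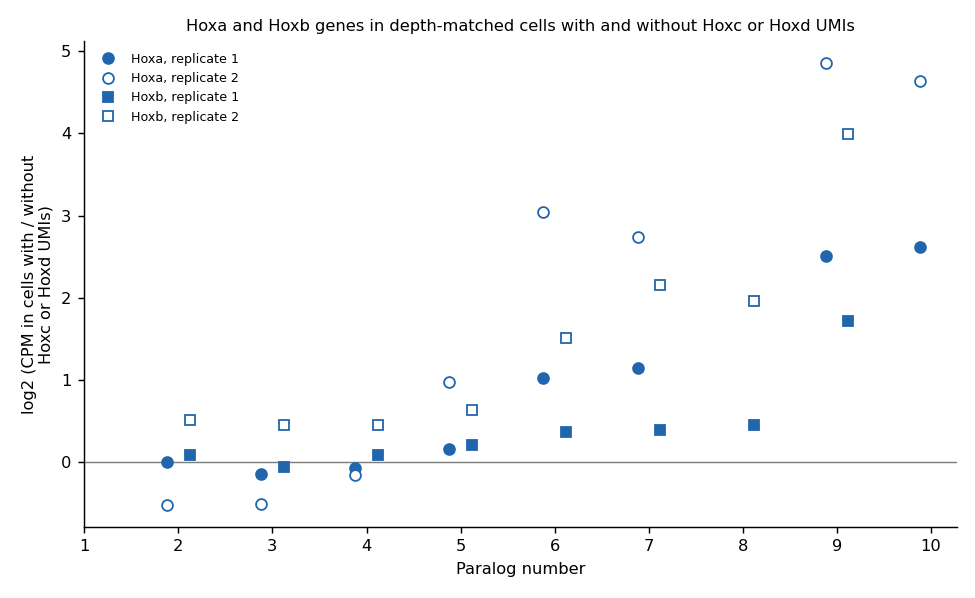
Log2 ratio of CPM in cells with to cells without a Hoxc or Hoxd UMI, in depth-matched pairs of non-endothelial cells, against paralog number. Circles are Hoxa and squares Hoxb genes, filled for replicate 1 and open for replicate 2, without 1 gene not reported here. Numbers 2 to 4 lie near 0, and numbers 9 and 10 reach 2.62 in replicate 1 and 4.85 in replicate 2.

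In the other direction, cells with at least 1 *Hoxa* or *Hoxb* UMI were paired with cells without (252 and 990 pairs). *Hoxc6* had 24.2 and 15.2 CPM in cells with such a UMI against 12.0 and 2.29 CPM in cells without, and *Hoxc9* had 14 and 6.48 CPM against 4.25 and 1.60 CPM. *Hoxc8* had 41.3 and 10.9 CPM against 22.0 and 1.22 CPM. All 6 tested *Hoxc* members had positive values, with a median of 1.71 beside 0.00 over all genes, and 0 were called by edgeR's quasi-likelihood test, as were 0% of 11822 genes, while DESeq2 also called 0. At an unadjusted p under 0.05, 2 members were higher, beside 75 of all genes. With the block, *Hoxc4* (2.28, edgeR adjusted p = 0.0137), *Hoxc6* (1.89, 0.000187), *Hoxc8* (1.69, 0.00135) and *Hoxc9* (1.82, 0.000898) were higher, where 1.15% of all genes were. In the cells of replicate 2 without such a UMI, *Hoxc4*, *Hoxc5*, *Hoxc8* and *Hoxc10* had 0.305, 0.0762, 1.22 and 1.14 CPM. Their levels in the cells without alone would not have passed the filter on low counts. Neither their calls nor the median of 1.71 therefore stands for all *Hoxc* members.

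Cells with and without any *Hox* UMI were compared for all other genes in 180 and 942 pairs. EdgeR's quasi-likelihood test called 0 of 11664 genes, so that 0% were higher and 0% were lower. At an unadjusted p under 0.05, 87 genes were higher and 67 were lower in *Hox*-positive cells, and DESeq2 called 2 higher and 13 lower. With the block, 0.66% were higher and 0.42% were lower. The 5 genes with the lowest p in each direction were *Snai2*, *Agt*, *Gas1*, *Fibin* and *Fam46a* (0.84 to 2.15 on the log2 scale), and *Mmp12*, *Ctss*, *Atp6v0d2*, *Lyz2* and *Cd36* (-11.1 to -5.04). *Snai2* encodes a transcription factor of mesenchymal cells, whereas *Mmp12*, *Ctss* and *Lyz2* are genes of macrophages. The 8 macrophage markers summed to 428 CPM in *Hox*-negative and 7.42 CPM in *Hox*-positive cells of replicate 1, and to 22.1 and 4.29 CPM in replicate 2, with the higher sum in the negative cells of each. Cells with at least 2 UMIs in 2 of *Ptprc*, *Csf1r*, *C1qa* and *C1qb* numbered 11 and 3, of which 45.5% and 66.7% had no *Hox* UMI. Without them and the 1 and 4 cells with Schwann markers, *Mmp12* was lower by 6.78 on the log2 scale (edgeR adjusted p = 0.0390). The part of macrophage RNA in the *Hox*-negative set was not tested further.

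The same comparison by the UMIs of numbers 6 to 13 was added after the values above had been seen (660 and 2589 pairs). Numbers 1 to 4 summed to 111 and 122 CPM in cells with such a UMI and to 97.6 and 95.4 CPM in cells without, with the lower sum in the cells without in both libraries. *Hoxb2* had 33.6 and 40.6 CPM against 26.7 and 25.7 CPM, and *Hoxa3* had 14.5 and 15.4 CPM against 13.1 and 22.3 CPM. *Hoxc4* had the largest difference among low numbers, with 6.07 and 4.19 CPM against 0.938 and 0.310 CPM (log2 fold change 3.23, edgeR adjusted p = 1.00, with the block 0.0679, DESeq2 adjusted p = 0.00147). EdgeR called 0 of 13535 genes (0% higher and 0% lower), and 159 were higher and 142 lower at an unadjusted p under 0.05, while DESeq2 called 15 higher and 14 lower. With the block, 0.0813% were higher and 0.0591% were lower. The genes with the lowest p were *Elobl*, *Id4*, *Frmd3*, *Fbln7* and *Arhgdib* (0.94 to 1.75), and *Mmp12*, *Ctss*, *Acot1*, *Diras2* and *Cybb* (-6.55 to -1.36). The macrophage markers summed to 67.4 CPM in cells without and 6.24 CPM in cells with such a UMI in replicate 1, and to 9.34 and 6.03 CPM in replicate 2, and their part was not tested. In each of the 6 lists, 0 genes were called with or without the block. Of number 5, *Hoxc5* was at 2.73 on the log2 scale, *Hoxa5* at 0.76 and *Hoxb5* at 0.77, and *Hoxb2* was at 0.48. At an unadjusted p under 0.05, 3 of 11 tested members were higher (*Hoxc4*, *Hoxb2* and *Hoxc5*), and 0 were called. In cells without a UMI of numbers 6 to 13, *Hoxc5* had 0.682 and 0.103 CPM. The levels of *Hoxc4* and *Hoxc5* in these cells alone would not have passed the filter on low counts.

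Clusters made for each library without the *Hox* genes showed where the cells without numbers 6 to 13 lay. In replicate 2, a cluster led by *Col2a1*, *Tfap2b*, *Adamtsl1* and *Dlx5* (310 cells) had 6.66 CPM of numbers 6 to 13, and 93.2% of its cells had no UMI of them, where the library's mean level would leave 21.7%. A cluster led by *Ly6d*, *Efemp1* and *Sox9* (1053 cells) had 16.6 CPM and 90.4% of cells without, and a cluster led by *Hp*, *Lpl* and *Gpc3* (869 cells) had 199 CPM and 42.0%. Numbers 1 to 4 were at 92.8, 79.8 and 142 CPM in these 3 clusters. These clusters thus spanned a wider range in the high than in the low paralog numbers.
In replicate 1, non-endothelial clusters ranged from 80.8 to 280 CPM of numbers 6 to 13. The lowest was led by *Igfbp2* and *Mylk4* (260 cells, 81.2% of them Myh11-high), with 36.5% of cells without a UMI of them against 5.13% at the library's mean level. The 2 clusters with the highest shares of cells without any *Hox* UMI (48.8% and 78.4%) were led by glutathione transferase genes and had a median of 4654 and 4439 UMIs, the lowest depth of any cluster of their library. They also had low levels, with 31.7 and 28.5 CPM of numbers 1 to 4.

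**Figure D5:**
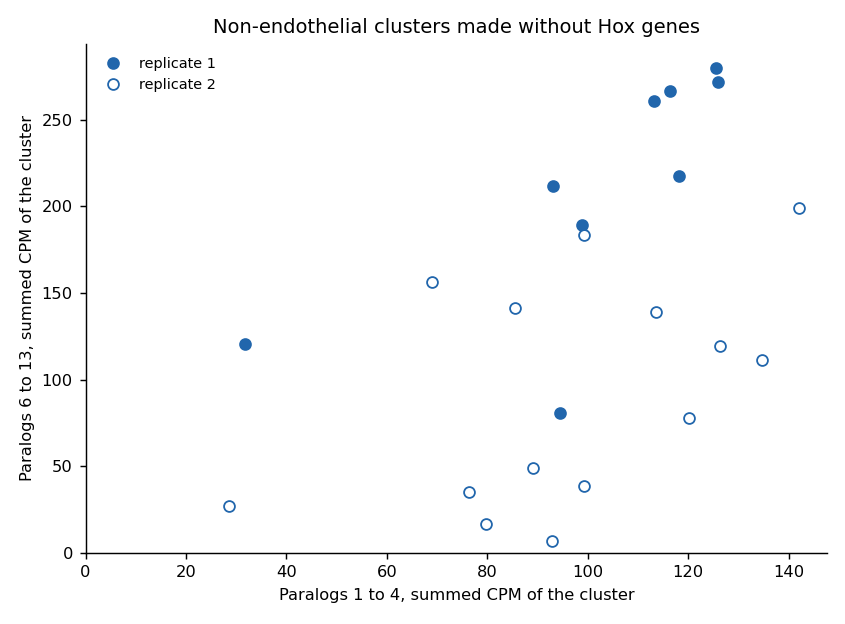
Summed CPM of paralog numbers 6 to 13 against that of numbers 1 to 4 in each non-endothelial cluster, with filled circles for replicate 1 and open circles for replicate 2. Clusters of replicate 2 spread from 6.66 to 199 CPM on the vertical axis, mostly at 69.0 to 142 CPM on the horizontal axis, and those of replicate 1 lie between 80.8 and 280 CPM.

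*Tfap2b*, *Dlx5* and *Pax9* are transcription factor genes of the pharyngeal arches and their neural crest. Cells with a UMI in at least 2 of them numbered 225 in replicate 2 and 4 in replicate 1, so that this set is in effect 1 library's. In replicate 2, numbers 6 to 13 summed to 8.41 CPM in these cells and to 95.7 CPM in cells of equal depth without the 3 genes, whereas numbers 1 to 4 summed to 101 CPM in both. *Hoxb7* had 3 UMIs against 103, *Hoxa7* 11 against 132, *Hoxc9* 0 against 32, *Hoxa9* 0 against 17 and *Hoxa10* 0 against 12. Of the 225 cells, 90.7% (86.1% to 94.1%) had no UMI of numbers 6 to 13.
The 4 cells of replicate 1 went the other way, with 510 CPM of numbers 6 to 13 against 195 CPM. Of the 16 tested members, edgeR's quasi-likelihood test called 0, as it did 0% of 10060 genes lower, and DESeq2 called 0, while 1 member was lower at an unadjusted p under 0.05, beside 100 of all genes. With the block, *Hoxb7* was lower (-3.58, edgeR adjusted p = 0.0381), where 0.268% of all genes were. In the *Tfap2b*, *Dlx5* and *Pax9* cells of replicate 2, *Hoxb7* had 0.561 CPM. Its levels in the *Tfap2b*, *Dlx5* and *Pax9* cells alone would not have passed the filter on low counts. Without the 4 cells of replicate 1, the tested members had a median log2 fold change of -1.56, beside 0.02 over all genes. That fit kept the cells of replicate 1 that had been set against them. It held 1 sum of *Tfap2b*, *Dlx5* and *Pax9* cells, without a replicate. In that sum, *Hoxb7*, *Hoxb8*, *Hoxb9*, *Hoxc6*, *Hoxc8* and *Hoxc9* had 0 to 1.12 CPM. These levels alone would not have passed the filter on low counts, so the median of -1.56 does not stand for all members.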

How the data were processed

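The authors made the deposited counts with Cell Ranger, which aligned reads to mm10 and counted UMIs per gene and barcode. The submitters' notes and the file header of replicate 1 give version 3.0.2, and the header of replicate 2 gives 3.1.0. The deposited tables were not filtered to cells, and the filters on cells were set here.

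UMIs were summed per library and class, or per library and depth-matched set of cells, and the 2 sums per class were compared with edgeR 4.0.16 (R 4.3.3, TMM, genes kept by filterByExpr, quasi-likelihood test, adjusted p under 0.05). DESeq2 1.42.0 was an alternative. Since cells of 1 library share a culture, the library number pairs the sums, whose deviations correlated between classes or sets with r from 0.111 to 0.725, and a fit with the library as a block was made beside each. With 2 libraries, p-values of the fits without the block measure the spread between these cultures. Those with the block measure how far the difference between classes or sets varied between the 2 libraries. An exact permutation test could not pass the threshold. The profile of free RNA was taken from the barcodes that held at most 100 UMIs. No doublet caller was run. Clusters were made with scanpy 1.11.5 and leidenalg 0.10.2 (3000 variable genes without *Hox* genes, 40 components, 20 neighbours, resolution 0.8). Shares have exact Clopper-Pearson intervals, except that the limit for a count of 0 is 3 divided by the number of cells. Positions are from GENCODE M21, in which 31011 of the 31053 identifiers were found.

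Named genes were all members, the listed genes around and upstream of them, and the 5 genes with the lowest p in each direction between *Hox*-positive and *Hox*-negative cells. Members and lists were chosen with earlier results of these data known. The sets by numbers 6 to 13, and the division into numbers 1 to 4 and 6 to 13, were added after seeing the data. The fits without the block were tested on simulated data. Values of 1 member, and some sequences, are not reported here.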

Additional observations from a re-analysis of the deposited data

How the results depend on the processing

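Values were recomputed under each alternative, and those that moved most follow. With the library as a block, 2 of 27 members were called between Myh11-high and Myh11-low cells, and 10 of 27 in endothelial cells. By *Hoxa* and *Hoxb* status, 4 of 6 *Hoxc* genes were called, beside 136 higher and 111 lower of 11822 genes. By *Hoxc* and *Hoxd* status, 2 of 17 *Hoxa* and *Hoxb* genes were called, beside 147 higher and 233 lower of 13621 genes. In *Tfap2b*, *Dlx5* and *Pax9* cells, 1 of 16 members was called, beside 10 higher and 27 lower of 10060 genes. Between *Hox*-positive and *Hox*-negative cells, 126 of 11664 genes were called. Of all 13225 genes, 300 were called between Myh11-high and Myh11-low cells (2153 with the block, 1161 with DESeq2, 69 of 21008 without the gene filter). Between endothelial and Myh11-low cells, 2148 of 13221 genes were called (4118 with the block, 1384 of 21004 without the gene filter). DESeq2 called 1 of 27 members between Myh11-high and Myh11-low cells. By *Hoxc* and *Hoxd* status, it called 2 of 17 members, both *Hoxa*, beside 12 higher and 14 lower of 13621 genes. By numbers 6 to 13, it called 1 of 11 members, beside 15 higher and 14 lower of 13535 genes. Between *Hox*-positive and *Hox*-negative cells, it called 15 genes. Without the gene filter, 3 of 10 *Hoxc* and *Hoxd* genes were called by *Hoxa* and *Hoxb* status, beside 31 higher and 106 lower of 17918 genes. Also without it, 169 of 17711 genes were called between *Hox*-positive and *Hox*-negative cells. The latter were 1 gene with cells of at least 1000 UMIs and 2 genes without macrophage and Schwann cells.

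The Hox-negative share was 11.2% and 20.5% with cells of at least 1000 UMIs, and 35.0% and 55.2% after thinning. When each sum was left out in turn, 95 to 323 of all genes were called between Myh11-high and Myh11-low cells and 606 to 1207 between endothelial and Myh11-low cells, 2 to 32 genes were called between *Hox*-positive and *Hox*-negative cells, with 32 without the *Hox*-negative sum of replicate 2, and 0 to 6 members in *Tfap2b*, *Dlx5* and *Pax9* cells, with 6 without the 4 cells of replicate 1. Log2 fold changes that turned were those of *Hoxb8* in Myh11-high cells (-1.60 to 0.15), *Hoxc8* by *Hoxa* and *Hoxb* status (-0.0040 to 4.30, the lowest without the positive sum of replicate 1), and, in *Tfap2b*, *Dlx5* and *Pax9* cells, *Hoxb7* (-5.10 to 0.58) and *Hoxa7* (-3.88 to 1.55, and 0.19 with DESeq2). The cause was not tested, and a sum left alone in its group is assumed to vary like the others. The fit without the 4 cells of replicate 1 tested 19 members among 11366 genes. The median log2 fold change was -1.56 over these members, which does not stand for all members, and 0.02 over all genes. That fit held 1 sum of *Tfap2b*, *Dlx5* and *Pax9* cells, without a replicate, so no conclusion is drawn from its count of called members.

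Depth limits the rare members most. In the self-test, 17% to 77% of genes changed 4-fold and 1% to 21% of genes changed 2-fold were recovered across the comparisons, so that a member without a call may still differ. Of the genes called in the self-test, 5.08% to 14.3% had not been changed, so that a call may also be false.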
